A study of Canis lupus familiaris with 10 samples.

Results

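The miR-17 seed family was described in small RNA libraries from canine lymph nodes as the 6 mature miRNAs cfa-miR-17, cfa-miR-20a, cfa-miR-20b, cfa-miR-93, cfa-miR-106a and cfa-miR-106b, out of 320 miRNAs with deposited counts. The members were chosen by name, as the family that shares the miR-17 seed while its genes belong to 3 clusters. Diffuse large B-cell lymphoma (DLBCL), an aggressive tumor of B cells, was represented by the affected nodes of 6 dogs (DLBCL1 to DLBCL6), and the control was a histologically normal node from each of 4 healthy dogs (Healthy2 to Healthy5). Each library came from one fresh-frozen node. The DLBCL dogs were hospital patients sampled by surgical biopsy under anesthesia, whereas the healthy dogs were purpose-bred research animals sampled at euthanasia. All healthy dogs were female hound crosses less than a year old. The DLBCL dogs were of both sexes and several breeds, and their ages were not given. Disease, origin, breed and sampling therefore cannot be told apart, and sex differed in part. The nodes were bulk tissue, in which a different proportion of cells of a type and a different amount of a miRNA per cell cannot be told apart either.

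A miRNA guides the silencing complex to messenger RNAs mainly through its seed, the short stretch near its 5′ end, and members with the same seed are thought to share many targets. The miR-17/miR-92a cluster is transcribed as one precursor under the control of MYC and is known as an oncogenic cluster of B-cell lymphomas. Its members restrain the pro-apoptotic protein BIM and the cell cycle inhibitor p21. The miR-106a/miR-363 cluster is its paralog, and the miR-106b/miR-25 cluster is carried in an intron of MCM7, a gene of the DNA replication machinery. As annotated on the dog assembly UU_Cfam_GSD_1.0, MIR17 and MIR20A lie in the first of these clusters, MIR106A and MIR20B in the second, and MIR106B and MIR93 in the third, which overlaps MCM7. Several members are nearly identical to each other, so that the counting could have split reads between them. The deposited names carry no arm for miR-17, and the PCR panel of the study followed it with an assay for the 3′ arm, which lacks the family seed. Whether the counted miR-17 is the arm with the seed was therefore not settled here. Ligation also favors some small RNAs over others, so that the order of the members by reads is an order of sequenced reads of near-equal length.

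The libraries held 10686441 to 34709421 reads on miRNAs. Levels are given as CPM, the read count per 1000000 reads of a library size adjusted by edgeR's TMM factor. These factors were 0.698 to 2.03 in DLBCL and 0.507 to 1.11 in healthy nodes. For the lymphoid label of the tissue, miR-142 and miR-223 of blood cells and miR-150 and miR-342 of mature lymphocytes were looked at. None of them was at 0 reads in any library. The red blood cell and stroma markers in the table were not at 0 reads either, so this cannot tell lymphoid tissue from another. The lymphocyte markers summed to 615 to 1802 CPM in DLBCL and 3503 to 15355 CPM in healthy nodes, with 1 of the 2 called lower, and the blood cell markers to 4238 to 7539 CPM and 3408 to 5489 CPM. Markers of stroma and vessels, 7 of 8 in the table, summed to 29451 to 89550 CPM in DLBCL and 40548 to 79867 CPM in healthy nodes. Of these 7, 6 had negative log2 fold changes, with a median of -0.74 and the lowest value for miR-125b (-1.42, adjusted p = 0.118 from edgeR), and 0 were called. Their part in the levels of the family was not tested. DLBCL3 stood apart, with the highest sum of the 3 skeletal muscle markers in the table (352 CPM, against 8.82 to 76.1 CPM in the other 9 libraries) and of the 7 epithelial markers (130.2 CPM, against 18.5 to 70.7 CPM). Of these markers, 1 and 4 were at 0 reads in at least 1 library. The red blood cell markers miR-451, miR-144, miR-486 and miR-486-3p summed to between 5740.1 and 48885 CPM in DLBCL and between 873 and 1278 CPM in healthy nodes, and 3 of these 4 were called higher in DLBCL. The libraries also differed in base quality at Q30, with DLBCL1, DLBCL2, DLBCL3 and DLBCL5 in a higher group and the other 6 libraries in a lower one.

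In DLBCL nodes, all 6 members had mean levels above those of healthy nodes, with log2 fold changes from 1.01 for miR-106b to 2.16 for miR-106a. In 4 DLBCL libraries the summed level of the family exceeded that of every healthy library, while DLBCL3 and DLBCL5 lay within the healthy range. The difference was not past the adjusted threshold for any member over the 247 miRNAs tested. The 6 members summed to 4633 ± 2652 CPM (SD, n = 6) in the tumors, against 1468 ± 827 CPM (SD, n = 4) in the controls. As a share of all miRNA reads this was 0.708% ± 0.595 (SD, n = 6) against 0.131% ± 0.114 (SD, n = 4). The summed level was 1660.1 CPM in DLBCL3 and 2180 CPM in DLBCL5, against 744 CPM in Healthy2, 1422 in Healthy3, 1070.2 in Healthy4 and 2637 in Healthy5. DLBCL4 and DLBCL6 held the most, at 8508 and 6864 CPM. Healthy5 was the highest healthy library in each of the 6 members. In the study's quantitative PCR, before scaling to reference miRNAs, miR-20a was higher in every DLBCL dog than in any healthy one. DLBCL3 held the most miR-20a, miR-20b and miR-106a there, unlike in the sequenced reads, and the least miR-17 of the DLBCL dogs. The PCR panel held neither miR-93 nor miR-106b, and its values were not used here. miR-17, whose arm is unsettled, took 0.379% ± 0.301 (SD, n = 6) and 0.349% ± 0.104 (SD, n = 4) of the family's reads.

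**Figure D1:**
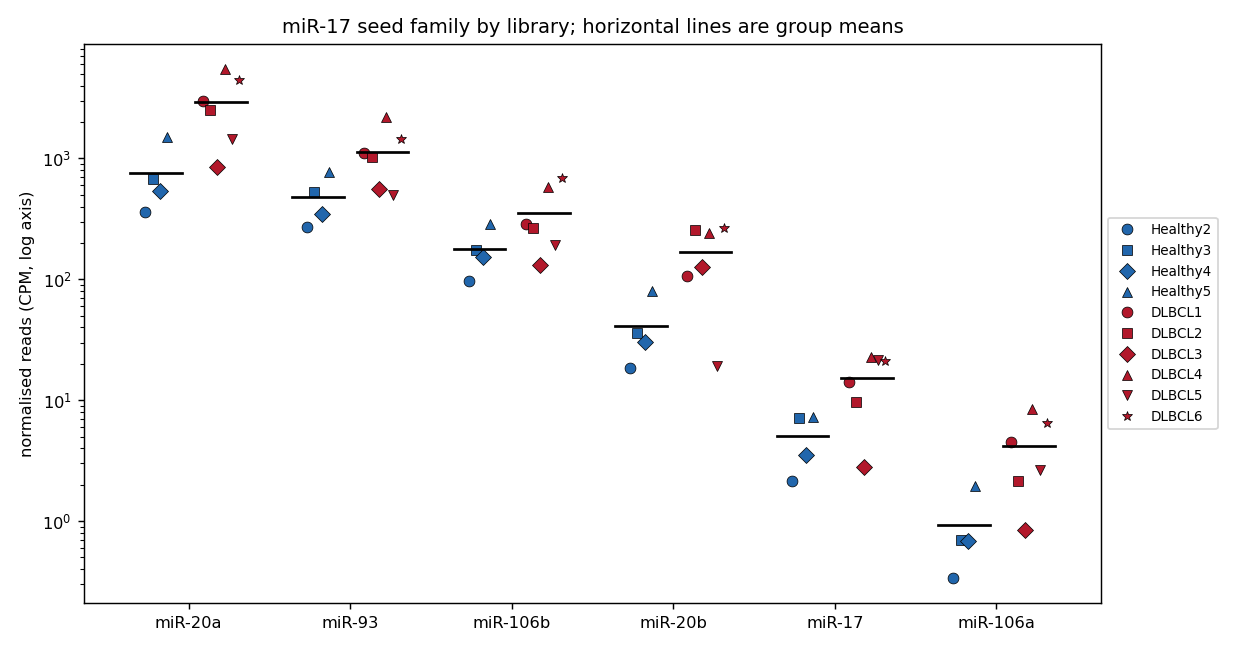
Normalised reads (CPM, log axis) of the 6 members in each of the 10 libraries, with blue symbols for healthy and red symbols for DLBCL nodes and a horizontal line at each group mean. Within every member the groups overlap, with DLBCL3 or DLBCL5 as the lowest DLBCL library and Healthy5 as the highest healthy one.

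From the miR-17/miR-92a cluster, miR-20a was the member with the most reads in all 10 libraries. Its level in DLBCL ran from 845 CPM in DLBCL3 to 5453 CPM in DLBCL4, with a median of 2749 CPM. In healthy nodes it was 358, 672, 537 and 1490.3 CPM in Healthy2, Healthy3, Healthy4 and Healthy5. Only Healthy5 reached into the DLBCL range, and all 6 DLBCL libraries were above the other 3 healthy ones. In edgeR the log2 fold change was 1.95 with a standard error of 0.59 (adjusted p = 0.0806). The two-sided exact permutation test, which enumerated 210 allocations of libraries to groups, gave p = 0.0238.

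miR-17, the first member of the same cluster and the name-giver of the family, was sequenced far less, with 38 to 853 reads per library. It measured 2.78 CPM in DLBCL3, the lowest DLBCL library, a median of 17.6 CPM in DLBCL, and 22.8 CPM in DLBCL4, the highest. The healthy values were 2.16, 7.12, 3.52 and 7.24 CPM in Healthy2 to Healthy5. Apart from DLBCL3, each DLBCL library was above each healthy one. DLBCL5, the lowest DLBCL library in miR-20b and miR-93, was here the second highest with 21.4 CPM. By edgeR the difference was 1.61 ± 0.64 on the log2 scale (standard error, adjusted p = 0.128), and by the exact permutation test p = 0.0619.

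From the miR-106a/miR-363 cluster, miR-20b ranged most widely among the DLBCL nodes. It ran from 19.3 CPM in DLBCL5 to 265 CPM in DLBCL6, a 13.7-fold range, with a median of 183 CPM. Healthy nodes held 18.4, 35.9, 30.5 and 80.1 CPM, in the order Healthy2 to Healthy5. The value of DLBCL5 was near the lowest healthy one, and the other 5 DLBCL libraries were above every healthy library. By edgeR the difference was 2.03 ± 0.70 on the log2 scale (standard error, adjusted p = 0.109), and by the exact permutation test p = 0.0619.

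miR-106a was the rarest member, with 6 to 259 reads per library. It measured 0.847 CPM in DLBCL3, a median of 3.59 CPM in DLBCL and 8.47 CPM in DLBCL4. In healthy nodes it was at 0.341, 0.697, 0.683 and 1.96 CPM in Healthy2 to Healthy5. The 6 reads of Healthy2 carry an exact 95% Poisson interval of 2.20 to 13.1 reads, which covers counting error only. DLBCL3 alone lay below the highest healthy library. By edgeR the difference was 2.16 ± 0.76 on the log2 scale (standard error, adjusted p = 0.109), the largest value among the members, and by the exact permutation test p = 0.0238.

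From the miR-106b/miR-25 cluster, miR-93 was the second most abundant member in all 10 libraries. Its DLBCL values had a median of 1074 CPM, with DLBCL5 lowest at 494 CPM and DLBCL4 highest at 2201 CPM. The healthy values were 269, 532, 347 and 772 CPM in Healthy2 to Healthy5. DLBCL3 and DLBCL5 fell within the healthy range and the other 4 DLBCL libraries above it. By edgeR the difference was 1.25 ± 0.50 on the log2 scale (standard error, adjusted p = 0.132), and by the exact permutation test p = 0.0476.

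Its cluster neighbor miR-106b had the smallest difference of the family. It ran from 131 CPM in DLBCL3 to 686 CPM in DLBCL6, with a median of 275 CPM. Healthy nodes held 96.7, 174, 152 and 285 CPM in Healthy2 to Healthy5. Only DLBCL4 and DLBCL6 were above Healthy5, and DLBCL3 was below Healthy3 and Healthy4 as well. By edgeR the difference was 1.01 ± 0.54 on the log2 scale (standard error, adjusted p = 0.233), and by the exact permutation test p = 0.157. The 6 permutation p-values of the members were not adjusted, and the smallest that 6 libraries against 4 allow is 0.00476.

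Set against all miRNAs, the family was on the high side of the comparison without a call in edgeR. The thresholds were those of the study's methods (adjusted p under 0.05 and a log2 fold change over 1), but the study's tool was DESeq2. Among the 247 miRNAs tested, 3.64% were called higher in DLBCL, and 0 of the 6 members were. By log2 fold change alone, 6 of 6 members were above 1, against 27.1% of all miRNAs tested. At an unadjusted p under 0.05, 5 of 6 members were higher in DLBCL, all but miR-106b, against 17.4%. For 0 of 6 members did every DLBCL library exceed every healthy one, against 6.88% of all miRNAs tested. The median log2 fold change was 1.78 over the members and 0.13 over all tested. Between 20 miRNAs (for miR-106a) and 66 (for miR-106b) had a larger log2 fold change than a member.

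The call depended on the tool and on which DLBCL libraries entered. DESeq2, the tool of the study, called 4 of 6 members higher (miR-106a, miR-17, miR-20a and miR-20b), with 12.6% of miRNAs called higher by the same rule. limma-voom with sample quality weights called these 4 and miR-93, against 10.5%. Neither called miR-106b, with adjusted p = 0.157 from DESeq2 and 0.0709 from limma-voom. In edgeR without DLBCL3, miR-17, miR-20a and miR-106a passed both thresholds, with log2 fold changes of 1.85, 2.17 and 2.40. In that fit 15 of 244 miRNAs were called higher, beside 9 of 247 with all libraries. Without DLBCL5 miR-20b alone passed, at 2.26, where 9 of 245 miRNAs were called higher. Leaving out any other library gave 0 members called. DLBCL3 was the lowest DLBCL library in miR-17, miR-20a and miR-106a, and DLBCL5 in miR-20b, so leaving each out favored these calls.

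Within the lower Q30 group, that is DLBCL4 and DLBCL6 against the 4 healthy libraries, 6 of 6 members passed both thresholds in edgeR, against 11.6% of miRNAs called higher. These were the DLBCL libraries with the highest summed level of the family (8508 and 6864 CPM), so the comparison kept only the highest tumors. The members' log2 fold changes there were 2.12 for miR-17, 2.69 for miR-20a, 2.61 for miR-20b, 1.91 for miR-93, 2.97 for miR-106a and 1.83 for miR-106b. DLBCL4 and DLBCL6 were also the DLBCL libraries with the highest TMM factors (1.75 and 2.03) and the lowest red blood cell markers (5740.1 and 9760.4 CPM), while DLBCL3 and DLBCL5, low in most members, had the lowest TMM factors (0.824 and 0.698) and the largest shares of miR-148a among the DLBCL libraries (39.0% and 38.8% of miRNA reads). The part of these differences in the levels of the family was not tested. With the Q30 group as a covariate on all 10 libraries, miR-20a alone was called, with a log2 fold change of 2.70, against 2.02% of all miRNAs tested. The higher Q30 group held no healthy library, so this estimate also rests on DLBCL4 and DLBCL6 against the healthy nodes.

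**Figure D2:**
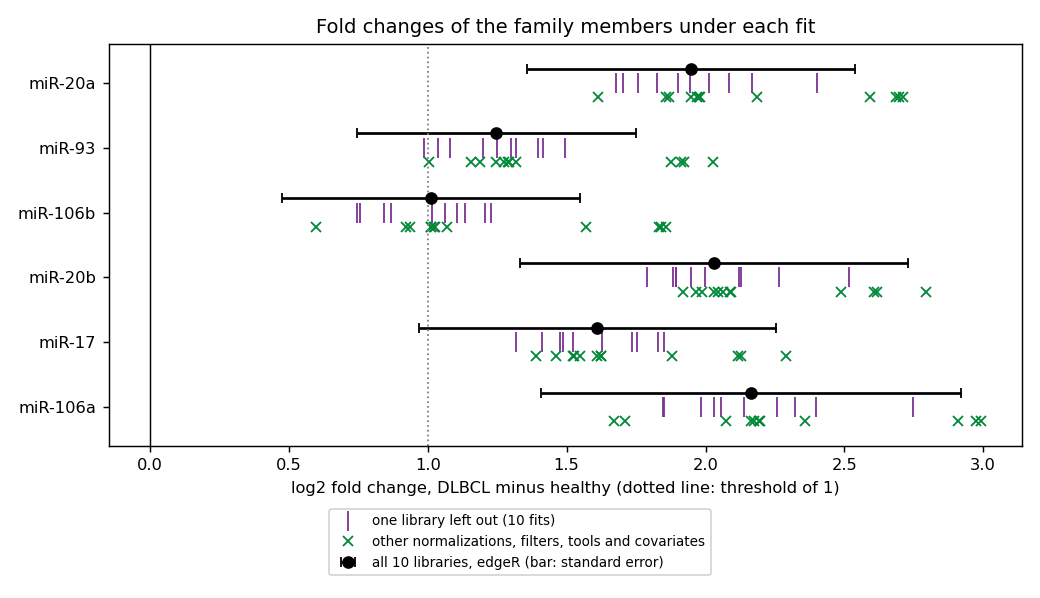
Log2 fold changes (DLBCL minus healthy) of the 6 members, with the edgeR fit of all 10 libraries as black points with their standard errors, 10 leave-one-out fits as purple ticks, and the other normalizations, filters, tools and covariates as green crosses. Every mark lies above 0, and the marks of miR-106b lie on either side of the threshold of 1, as do those of miR-93 with a single mark at 0.99.

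Ratios between members within a library need no scaling between libraries, and they were compared to see whether the members differed from each other in their difference between the groups. Of the 15 pairs, the ratio of miR-20a to miR-106b separated the groups completely. Its log2 value was 2.69 to 3.38 in the DLBCL libraries and 1.82 to 2.38 in the healthy ones, a difference of 1.02 (3.03 ± 0.30, SD, n = 6, against 2.01 ± 0.25, SD, n = 4). The two-sided exact permutation test gave p = 0.00476, the smallest possible, and 0.0714 after Benjamini-Hochberg adjustment over the 15 pairs. Thus miR-20a was higher relative to miR-106b in 6 of 6 DLBCL libraries, but the ratio did not pass the adjusted threshold with all 10 libraries. Without DLBCL3 the difference was 1.08 and without DLBCL5 1.04, each with an adjusted p of 0.0397 in the same exact test. The groups were already fully separated, so both tests gave the smallest p possible. At that p, the adjusted value depends on how many of the 15 pairs share it. Over the 10 leave-one-out fits, 0 to 3 pairs passed, so the value of 0.0397 adds no support for this ratio.

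The ratios of miR-106a to miR-106b and of miR-20a to miR-93 also had larger values in DLBCL, in each case a member of another cluster over a member of miR-106b/miR-25. The former differed by 1.20 on the log2 scale (exact permutation test, p = 0.0143, adjusted p = 0.107 over the 15 pairs) and the latter by 0.72 (exact permutation test, p = 0.0286, adjusted p = 0.143). Without DLBCL3 the differences were 1.34 and 0.86, each with an adjusted p of 0.0397 in the exact test, again the value shared by pairs at the smallest p. DLBCL3 had the lowest DLBCL value in both ratios, so leaving it out favored a separation. Without DLBCL5, its lowest DLBCL library, the ratio of miR-20b to miR-106b also passed, with a difference of 1.37 in place of 0.95. Within the miR-106b/miR-25 cluster, the log2 ratio of miR-93 to miR-106b was 1.73 ± 0.41 (SD, n = 6) in DLBCL, against 1.43 ± 0.17 (SD, n = 4) in the controls (exact permutation test, p = 0.21, adjusted p = 0.393). None of the 15 ratios had an adjusted p under 0.05 in this test, and 3 had an unadjusted one. The other ratios of another cluster's member to miR-93 or miR-106b differed by 0.31 (miR-17 to miR-93) to 0.95 (miR-20b to miR-106b). Their unadjusted p ran from 0.0667 to 0.633 in the exact permutation test. miR-20a made up 62.4% ± 5.84 (SD, n = 6) of the family's reads in DLBCL, against 50.5% ± 4.19 (SD, n = 4) in the controls, miR-93 made up 25.5% ± 4.30 and 33.8% ± 3.68, and miR-106b 7.73% ± 1.46 and 12.6% ± 1.40.

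**Figure D3:**
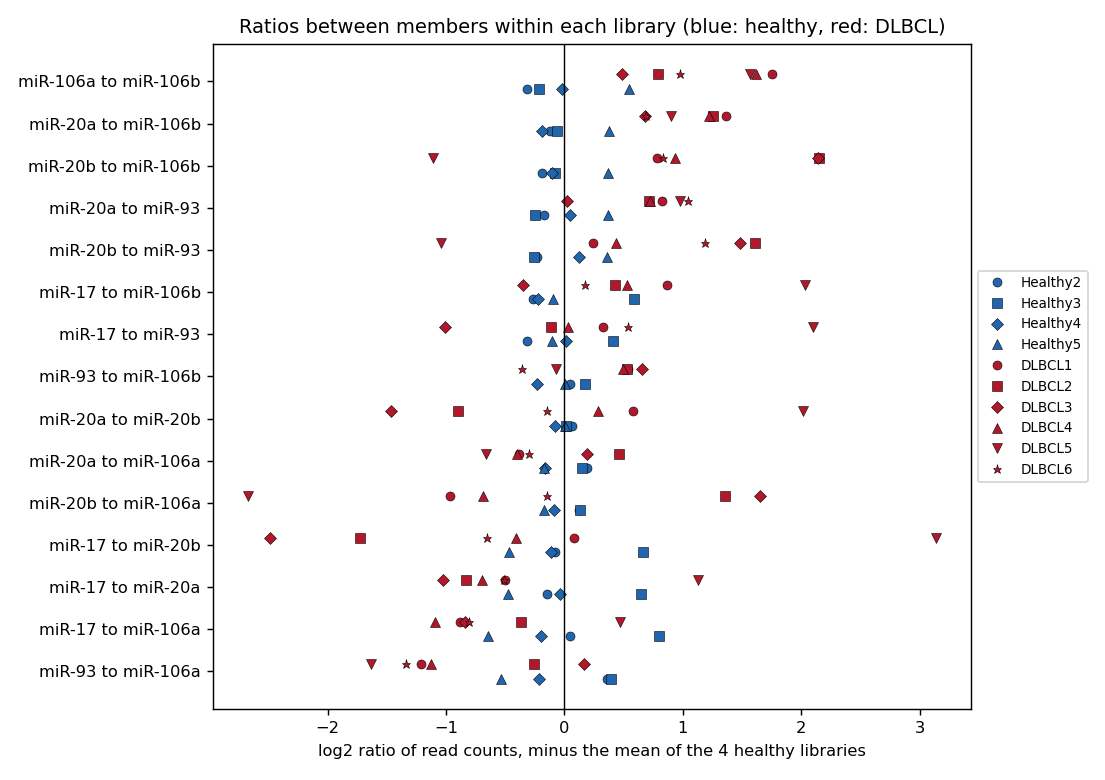
Log2 ratio of the read counts of each of the 15 pairs of members in each library, centered on the mean of the 4 healthy libraries (blue symbols healthy, red symbols DLBCL). For miR-20a to miR-106b all 6 DLBCL symbols lie to the right of the 4 healthy ones, and the 5 pairs with miR-20b have SDs between 0.998 and 1.95 among the DLBCL libraries.

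The ratio of the paralogs miR-20a and miR-20b varied little in healthy nodes and widely in DLBCL. Its log2 value lay between 4.14 and 4.28 in the 4 healthy libraries (SD 0.058) and between 2.75 and 6.23 in the DLBCL libraries (SD 1.22). All 6 DLBCL libraries were outside the healthy range, in both directions. DLBCL3 and DLBCL2, at 2.75 and 3.32, held relatively more miR-20b, while DLBCL5, at 6.23, held the least. DLBCL6 was below the healthy values at 4.07, and DLBCL4 and DLBCL1 were above them at 4.50 and 4.80. The group means were 4.28 and 4.21 (difference 0.06, exact permutation test, p = 0.948). The difference in spread was not tested. All 6 DLBCL libraries were outside the healthy range for other pairs too, so that count was not particular to these paralogs. Those pairs were miR-17 to miR-20a, miR-20a to miR-106a, miR-20a to miR-106b and miR-20b to miR-106b.

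miR-17 and miR-20a come from one precursor, and the ratio of their reads differed between libraries. The log2 ratio of miR-17 to miR-20a was -6.08 in DLBCL5, and between -8.24 and -7.71 in the other DLBCL libraries. In healthy nodes it was -7.35, -6.56, -7.24 and -7.68 in Healthy2 to Healthy5. With DLBCL5 the groups did not separate (difference -0.40, exact permutation test, p = 0.395). Without it every DLBCL library was below every healthy one, the nearest at -7.71 and -7.68 (difference -0.71, exact permutation test, adjusted p = 0.0397 over the 15 pairs). Since DLBCL5 was left out for its own value in this ratio, that p is not independent support for a difference. In the order of the members by reads, miR-20a, miR-93, miR-106b, miR-20b, miR-17 and miR-106a, the single exception in any library was DLBCL5, with more reads of miR-17 than of miR-20b. The neighbors miR-106b and miR-20b came close to each other in DLBCL3 and DLBCL2, with 1.04 times as many reads of miR-106b at the lowest.

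The other miRNAs of the 3 clusters were followed beside the family, namely miR-18a, miR-18b, miR-19a, miR-19b, miR-25, miR-92a and miR-363. All 7 had positive log2 fold changes, with a median of 1.78, where 137 of the 247 miRNAs tested were positive. miR-363 alone was called in edgeR (2.14, adjusted p = 0.0397), that is 1 of 7 beside the 3.64% of all miRNAs called higher. With the Q30 covariate, which rests on DLBCL4 and DLBCL6 against the healthy nodes, miR-363 was no longer called (1.46, adjusted p = 0.156). Nor was it called without DLBCL1 (adjusted p = 0.0715) or without any one healthy library (adjusted p from 0.108 to 0.144). DESeq2 called 4 of the 7 and limma-voom 5, beside 12.6% and 10.5% of all miRNAs called higher by these tools. For miR-25 the log2 fold change was 1.20, and 0.23 with the Q30 covariate. miR-92a and miR-363, which share another seed with miR-25, were higher in every DLBCL library than in any healthy one, as were 6.88% of all miRNAs tested. In DLBCL3, miR-25 reached 23024 CPM and miR-92a 14163 CPM, the highest of all 10 libraries, while miR-17, miR-20a, miR-106a and miR-106b were there at their lowest in DLBCL. In DLBCL4, where miR-17, miR-20a, miR-93 and miR-106a were at their highest, miR-25 was at 5373 CPM, below the 6580 CPM of Healthy4.

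**Figure D4:**
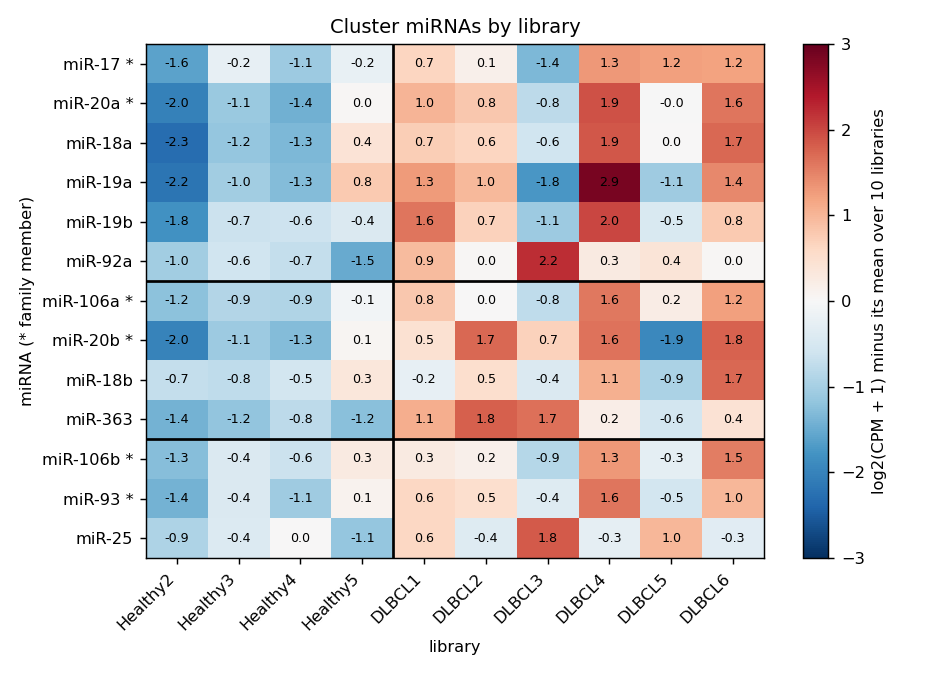
Log2(CPM + 1) of the 13 miRNAs of the 3 clusters in each library, as the difference from the mean of the miRNA over the 10 libraries (red above, blue below), with the miR-17/miR-92a, miR-106a/miR-363 and miR-106b/miR-25 clusters from top to bottom, miR-19b and miR-92a shown once, and stars at family members. In DLBCL3, miR-92a (2.2), miR-363 (1.7) and miR-25 (1.8) are high, whereas miR-17 (-1.4), miR-20a (-0.8), miR-93 (-0.4), miR-106a (-0.8) and miR-106b (-0.9) are low and the member miR-20b (0.7) is high.

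The ratios of these partners to members were taken within libraries. There were 41.5 reads of miR-25 for each read of miR-93 in DLBCL3 and 26.1 in DLBCL5, but 2.44 in DLBCL4, 3.55 in DLBCL6, 4.82 in DLBCL2 and 8.95 in DLBCL1. In Healthy2 to Healthy5 there were 12.7, 9.23, 18.96 and 3.78. The groups overlapped, and the lowest healthy value was again that of Healthy5. For miR-92a over miR-20a, from the miR-17/miR-92a cluster, the ratio was 16.8 in DLBCL3 and 0.678 to 2.75 in the other DLBCL libraries, against 0.723 to 4.18 in healthy nodes. miR-92a has a second gene in the miR-106a/miR-363 cluster, so that its reads cannot be assigned to one of them. These partner ratios were chosen after the values were seen and were not tested.

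Likeness between miRNAs was measured as the standard deviation of their log2 ratio over the 10 libraries, where a small value means that a pair kept its ratio. For miR-20a, the closest of 246 miRNAs was its cluster partner miR-18a, at 0.24, with a ratio of 0.0142 to 0.0261 reads of miR-18a for each read of miR-20a. miR-106a, from the paralogous cluster, came next at 0.35. For miR-93 the closest was miR-106b, its cluster neighbor, at 0.36, and for miR-106b, miR-29b at 0.29 and then miR-93. These values over 10 libraries include the difference between the groups, and the order changed within the 6 DLBCL libraries. There miR-106b was at 0.157 from miR-18a, 0.294 from miR-29b, 0.302 from miR-20a and 0.412 from miR-93. Likewise miR-93 was at 0.331 from miR-29b, 0.358 from miR-18a and 0.365 from miR-20a, each below its value with miR-106b. miR-20b was closest to miR-18b of its own cluster, at 0.72, and miR-17 to miR-194, at 0.58. miR-106a was closer to miR-20a (0.35) than to miR-20b (1.20), although its gene lies in the cluster of the latter. It had 6 to 259 reads per library, beside 6288 to 179466 of miR-20a, and their sequences in the study's PCR panel are nearly identical. Whether some reads of miR-20a were counted as miR-106a was not tested. In contrast, miR-25 was at 1.35 from miR-93, and miR-92a at 1.45 from miR-20a, each in one cluster with it. Between miR-25 and miR-92a, of different clusters and with a shared seed, the value was 0.47.

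**Figure D5:**
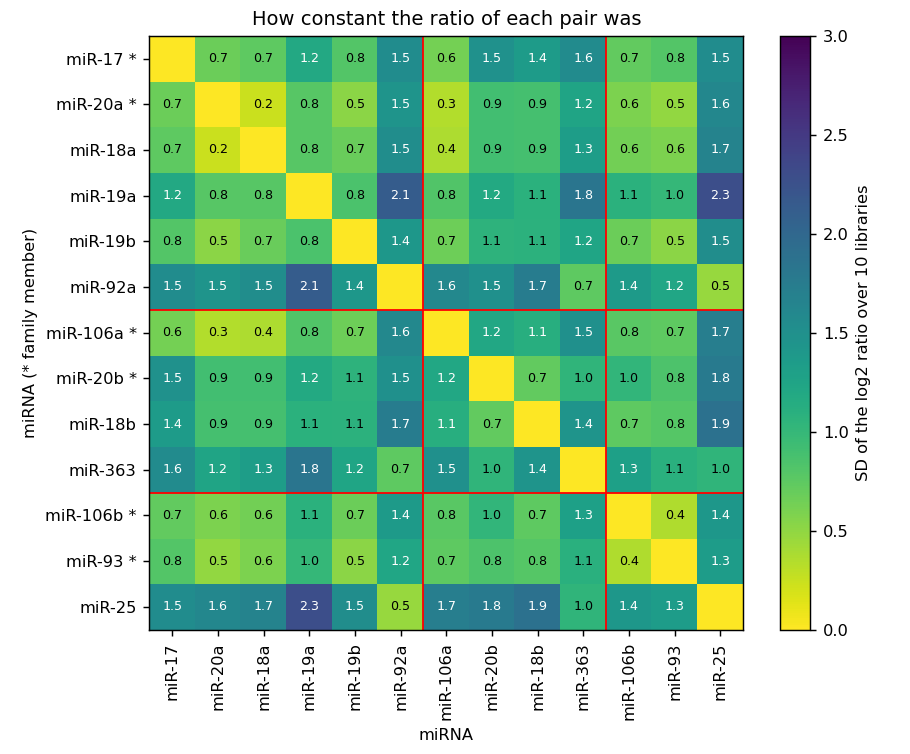
Standard deviation over the 10 libraries of the log2 ratio of read counts for each pair of the 13 miRNAs of the 3 clusters (lighter means a more constant ratio), with red lines between the clusters and stars at family members. miR-20a with miR-18a (0.24), miR-20a with miR-106a (0.35) and miR-93 with miR-106b (0.36) are among the lightest cells, and miR-25 and miR-92a are light with each other (0.47) and dark with the family.

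Against the sum of the 6 members, the 5 closest miRNAs outside the family were miR-18a (0.34), miR-29c (0.41), miR-19b (0.48), miR-194 (0.58) and miR-29b (0.60), where the median over the 247 miRNAs tested was 1.53. Of these, miR-18a and miR-19b are cluster partners. miR-29c, of a family that represses DNA methyltransferases and collagens, measured 83.0 ± 72.6 CPM (SD, n = 6) in the tumors, against 21.9 ± 12.0 CPM (SD, n = 4) in the controls. By edgeR the log2 difference was 1.92 ± 0.68 (standard error, adjusted p = 0.109). In its quantitative PCR, however, the study ranked miR-29c among the most stable miRNAs and used it as a reference. miR-29b measured 406 ± 209 CPM (SD, n = 6) against 261 ± 109 CPM (SD, n = 4), a log2 difference of 0.64 ± 0.48 (standard error, adjusted p = 0.382 by edgeR). In their ratio to the summed members, miR-25, miR-92a and miR-363 stood at 1.48, 1.34 and 1.16, and the red blood cell markers between 1.72 for miR-144 and 2.49 for miR-486-3p. Within the 6 DLBCL libraries miR-144 was at 0.679, beside 0.688 for miR-194 and 1.76 for miR-25, while the other red blood cell markers were between 1.76 and 2.82.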

How the data were processed

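Small RNA of 10 lymph nodes, 6 DLBCL and 4 healthy, was sequenced with one library per dog. After adapter trimming, the authors mapped reads with Bowtie 0.12.9 (genome CanFam3.1 per the submitters' processing notes), discarded tags from repeats and from other classes of small RNA, and assigned the remainder to miRBase miRNAs with miRDeep2. The deposited counts were used as given. The deposited TPM values, used in one alternative, are counts per 1000000 of the library's listed miRNA reads without a length term (checked, largest difference 4.55e-05).

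All 320 miRNAs entered edgeR 4.0.16 in R 4.3.3 (TMM, default filter by group, quasi-likelihood test, Benjamini-Hochberg adjustment over the 247 miRNAs left, all 6 members among them). Ratios had 0.5 reads added, and permutation tests on log2(CPM + 1) or log2 ratios enumerated all 210 splits in Python 3.11.15. Alternatives used DESeq2 1.42.0 and limma 3.58.1, other scalings, filters, the Q30 group, the number in the label, summed near-identical members, and each library left out. The Q30 groups were taken from the study's sequencing statistics. The scripts were tested on simulated data. Named were the members, the other miRNAs of their clusters, the 5 miRNAs closest to the summed members, those closest to each member (chosen after the values were seen), miR-148a and the marker lists. Of the marker lists, miR-100 and miR-133a did not match a name in the table. The members and lists were chosen with earlier results of these data known. The gene annotation of UU_Cfam_GSD_1.0 served only for names and neighbors. No libraries of a group were duplicates (lowest chi-squared divided by its degrees of freedom, 2115). Since each library is from another dog, p-values measure the spread between dogs. Counting error weighs most for miR-106a, whose counts were low.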

Additional observations from a re-analysis of the deposited data

Results flagged for a closer look

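Of 42 groups of values examined (the 6 members' CPM and the 15 log2 ratios in DLBCL and in healthy nodes), 2 held a library far from the others by Dixon's criterion, which chance alone flags in about 1 of 20 groups. The log2 ratio of miR-17 to miR-20a was -6.08 in DLBCL5, with the next DLBCL library at -7.71. The log2 ratio of miR-20a to miR-93 was 0.61 in DLBCL3, with the next DLBCL library at 1.30. No cause was tested for either.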

How the results depend on the processing

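The log2 fold changes of the 6 members were positive in every fit that tested them, and a minimum of 10 reads in every library left miR-106a untested. Scaled to total miRNA reads, the median of all miRNAs moved from 0.13 to 0.82 and that of the members from 1.78 to 2.50, so that their distance from it was 1.65 and 1.68. The count of miRNAs past both thresholds was 14 with all libraries (9 higher, 5 lower; 66 at an unadjusted p under 0.05), 8 with DESeq2's size factors, 23 with total miRNA reads (22 higher, 1 lower), 45 with DESeq2, 46 with limma-voom, 7 with the Q30 group as covariate, 46 within the lower Q30 group and 1 to 23 with one library left out (3 without DLBCL1, 22 without DLBCL3, 23 without DLBCL4, and 2, 5, 1 and 6 without Healthy2 to Healthy5). For members it was 0, against 4 with DESeq2, 5 with limma-voom, 1 with the Q30 covariate, 6 within the lower Q30 group and 0 to 3 with one library left out. Members called were, with DESeq2, miR-17 at 1.62 (log2), miR-20a at 1.98, miR-20b at 2.09 and miR-106a at 2.20, and with limma-voom miR-17 at 1.52, miR-20a at 2.18, miR-20b at 2.04, miR-93 at 1.32 and miR-106a at 2.36. With the Q30 covariate miR-20a was called at 2.70. Within the lower Q30 group miR-17 was called at 2.12, miR-20a at 2.69, miR-20b at 2.61, miR-93 at 1.91, miR-106a at 2.97 and miR-106b at 1.83. Both settings rest on DLBCL4 and DLBCL6 against the healthy nodes. The cause of these differences was not tested.

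With one library left out, the log2 fold changes ranged from 1.32 to 1.85 for miR-17, 1.68 to 2.40 for miR-20a, 1.79 to 2.52 for miR-20b and 1.85 to 2.75 for miR-106a. The count of pairs with an adjusted p under 0.05 ranged from 0 to 3, with 3 without DLBCL3 and 3 without DLBCL5. The differences in ratio that changed sign ranged from -0.33 to 0.37 for miR-20a to miR-20b, -1.04 to 0.089 for miR-17 to miR-20b, -0.043 to 0.58 for miR-17 to miR-93 and -0.62 to 0.24 for miR-20b to miR-106a. Within the lower Q30 group the ratios were computed without a test, since 2 libraries against 4 cannot pass the threshold.

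The numbers in the labels are shared by different dogs. The deviations of same-numbered libraries correlated at 0.19, 0.11, -0.33 and -0.40 (Pearson's r across miRNAs, which are not independent), so that the numbers do not pair the samples. With the replicate block, 1 miRNA and 0 members were called, and the members' log2 fold changes lay between 0.60 and 1.92.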
